A study of Mus musculus with 12 samples.

Results

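The RefSeq noncoding transcripts measured here are the probes whose identifier on the array is a curated RefSeq noncoding RNA accession, of the form NR_ followed by digits. The array held 316 such probes. After 10 probes of Snhg1, Snhg3, Tug1, Miat, Malat1, Neat1, Meg3, H19 and Gas5 were set aside, 245 were well above background on at least 3 of 12 arrays, against 31168 of 37246 probes on the whole array. The 61 others did not reach that mark: 43 were above background on no array and 8 on exactly 2, while 6 of the 245 passed with exactly 3. A symbol was found for 196 of the 245 in RefSeq (185 distinct genes); 49 are given by accession, with no statement on what they do.

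Livers of 6-week-old male wildtype C57Bl/6 mice were sampled at 0, 1.5, 12 and 24 h after partial hepatectomy (PH), an operation in which 2/3 of the liver is cut away, and each time point held 3 mice. The labels place all 12 mice after PH, those at 0 h included, so the 0 h mice serve as baseline. Sham-operated mice were not analysed here, and the hour of day of collection is not given in the sources used here. The RNA was total RNA from whole liver, hybridised in 1 colour (Cy3) to an Agilent array with probes for long noncoding and messenger RNAs. The comparisons are of expression between time points of liver regeneration.

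A noncoding RNA record in RefSeq is not 1 kind of molecule. Some are long noncoding RNAs that act as RNA, such as the X inactivation RNA Xist. Some are host genes whose introns release small nucleolar RNAs, the guides of chemical modification of ribosomal RNA. Some are splice forms of coding genes that carry no complete reading frame and are candidates for nonsense-mediated decay, and many are transcribed copies of genes that lost their coding capacity (pseudogenes). After PH the remaining hepatocytes leave quiescence within hours, mount an acute phase response and enter the cell cycle while they keep up plasma protein synthesis and metabolism.

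By the gene type in RefSeq, 95 of the 245 probes were transcribed pseudogenes, the largest class. Another 34 probes were noncoding variants of 29 coding genes, 14 were opposite-strand transcripts, 7 imprinted RNAs and 5 named regulatory long noncoding RNAs. There were 4 small nucleolar RNA host genes, 3 small structured RNAs and 2 probes of Xist. The remaining probes were 32 of 28 other named noncoding genes and 49 without a symbol. The files hold no probe sequence, so whether a pseudogene or variant probe also binds RNA of the coding gene was not tested.

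RefSeq promoter sequence (250 bases before to 50 after the annotated start, build GRCm38.p6) was available for 69 of the 185 named genes. The 5 below are shown because they belong to transcripts described in detail: Ipw and C030034I22Rik rose at 12 h, 1700096K18Rik rose at 24 h, Adarb1 fell at 12 h, and Snhg10 had the 1.5 h change called without 24 h replicate 2 but not with all arrays (adjusted p = 0.382). Capitals mark a CCAAT box (CCAAT on either strand).
Snhg10, chr12:105032230-105032529, minus strand: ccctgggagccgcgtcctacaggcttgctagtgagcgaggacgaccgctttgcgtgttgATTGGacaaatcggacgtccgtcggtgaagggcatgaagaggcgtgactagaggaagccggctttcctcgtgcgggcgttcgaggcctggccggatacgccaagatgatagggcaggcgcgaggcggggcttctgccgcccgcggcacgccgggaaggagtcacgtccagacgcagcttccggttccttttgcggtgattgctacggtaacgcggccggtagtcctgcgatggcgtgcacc
Ipw, chr7:59678829-59679128, minus strand: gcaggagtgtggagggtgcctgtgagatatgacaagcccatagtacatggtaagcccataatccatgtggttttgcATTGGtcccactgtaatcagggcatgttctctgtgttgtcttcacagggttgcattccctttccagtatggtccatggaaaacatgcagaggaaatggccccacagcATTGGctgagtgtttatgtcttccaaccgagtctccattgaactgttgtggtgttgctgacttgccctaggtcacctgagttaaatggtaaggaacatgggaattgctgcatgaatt
1700096K18Rik, chr5:25529768-25530067, plus strand: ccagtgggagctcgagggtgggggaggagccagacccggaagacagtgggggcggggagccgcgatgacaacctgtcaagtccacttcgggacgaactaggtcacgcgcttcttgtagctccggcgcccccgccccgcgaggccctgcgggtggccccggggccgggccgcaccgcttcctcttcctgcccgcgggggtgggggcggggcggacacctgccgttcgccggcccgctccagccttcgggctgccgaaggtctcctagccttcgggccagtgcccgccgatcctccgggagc
C030034I22Rik, chr17:69416197-69416496, plus strand: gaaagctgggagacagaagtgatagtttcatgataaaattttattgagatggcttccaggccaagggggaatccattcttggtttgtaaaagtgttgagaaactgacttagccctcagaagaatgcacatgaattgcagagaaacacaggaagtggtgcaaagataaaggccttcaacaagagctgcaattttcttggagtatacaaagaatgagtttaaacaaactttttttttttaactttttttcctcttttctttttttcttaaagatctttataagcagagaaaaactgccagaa
Adarb1, chr10:77418224-77418523, minus strand: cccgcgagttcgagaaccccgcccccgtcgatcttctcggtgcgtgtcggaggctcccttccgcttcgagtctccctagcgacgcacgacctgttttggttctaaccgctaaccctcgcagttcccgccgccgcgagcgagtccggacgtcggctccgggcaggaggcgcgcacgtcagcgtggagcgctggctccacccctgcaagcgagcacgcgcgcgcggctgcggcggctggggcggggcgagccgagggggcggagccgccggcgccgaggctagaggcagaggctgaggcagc

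The 5 windows fall into CpG-rich and CpG-poor ones. The CpG dinucleotide occurs 36 times in the Snhg10 window, 33 times in that of 1700096K18Rik and 46 times in that of Adarb1, but once in that of Ipw and not at all in that of C030034I22Rik, against a median of 7 over all 32851 promoters in the table. A CCAAT box, held by 37.4% of all promoters, occurs in the Snhg10 window at bases 60 to 64 and in the Ipw window at bases 77 to 81 and 184 to 188, counted from the 5′ end of the window. None of the 5 windows holds an E-box (CACGTG, 7.15% of all promoters), a cAMP response element (TGACGTCA, 1.79%), an AP-1 site (TGACTCA, 5.20%), a C/EBP site (TTGCNNAA, 10.8%), a STAT site (TTCNNNGAA, 8.30%), an NRF1 site (4.60%) or an ETS site (CCGGAAGT, 3.89%), searched on both strands. No match overlapped another motif. These are descriptions of letters in the windows only.

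Levels are given on a log2 scale as the processed spot intensity relative to its array's 75th percentile, so a probe at that percentile has a level of 0 and each unit is a doubling. A level also depends on how well a probe binds, so levels of different probes describe brightness and do not rank the abundance of genes. A difference was called when its adjusted p in limma was below 0.05, with adjustment over all 31168 probes tested. Errors after ± on a log2 fold change are standard errors of the model, which pools the spread of the 3 arrays at each of the 4 time points. Each array is 1 mouse, and the labels do not pair mice across time points.

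The arrays differed in ways that touch these results. The headers show scan times shared by arrays, read here as slides: slide 1 held the 0 h arrays and 1.5 h replicate 1, slide 2 held 1.5 h replicates 2 and 3 and 12 h replicates 1 and 2, slide 3 held 12 h replicate 3 and 24 h replicates 1 and 3, and slide 4 held 24 h replicate 2 alone. The 75th percentile signal was 6567 on 24 h replicate 2 and 444 to 601 on the other 11, and 540 spots of that array carried the outlier flag against 19 to 40 elsewhere. On the slide 2 arrays 36.5% to 40% of negative control spots were called well above background, against 9% to 25.5% elsewhere. Hepatocyte markers were above background on every array (8 of 8), and the adipocyte and neutrophil markers given below moved with time.

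The noncoding transcripts followed those differences. Of the 245, between 237 and 245 were above background on the 4 slide 2 arrays, against 180 to 213 on the other 8. Their median level was -1.42 to -1.26 on slide 2, -2.21 on 24 h replicate 2 and -1.98 to -1.47 on the remaining arrays. Outside slide 2, 214 of the 245 reached 3 arrays above background and 31 did not.

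**Figure D1:**
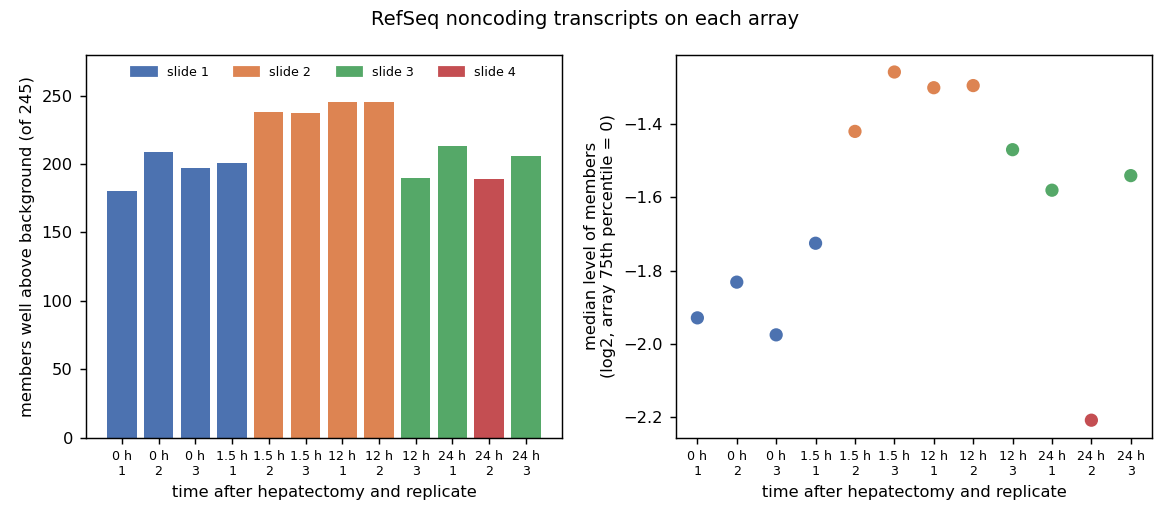
Number of the 245 RefSeq noncoding transcripts called well above background (left, bars) and their median level (right, points, log2 relative to the 75th percentile of the array) on each of the 12 arrays, ordered by time after PH and coloured by slide. The slide 2 arrays hold 237 to 245 detected transcripts and the highest medians; 24 h replicate 2 on slide 4 has the lowest median.

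The shift was one of dim probes. Within 1.5 h, the slide 2 arrays minus the slide 1 array gave a median difference of 0.55 log2 units for the dimmer transcripts (below -1.67) and -0.12 for the brighter ones. Within 12 h, the slide 2 arrays minus the slide 3 array gave 0.39 for the dimmer ones and -0.18 for the brighter ones. Coding probes of the same brightness gave 0.41 and -0.09 at 1.5 h and 0.30 and -0.12 at 12 h. On 24 h replicate 2, minus the other 24 h arrays, the dimmer ones had a median of -1.52 and coding probes as dim had -1.35. What part these shifts have in the changes over time was not tested; values within slides or with slide as a fixed block are given beside many of the changes below. No slide holds both 0 h and 12 h arrays or both 0 h and 24 h arrays.

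At 1.5 h no transcript passed the threshold against 0 h (0 of 245), where 0.0225% of all probes did. An unadjusted p below 0.05 was found for 6.42% of all probes and for 19 of the 245. With 24 h replicate 2 left out, 1 transcript was called, where 0.594% of all probes were. That transcript was Snhg10, a long noncoding RNA whose intron encodes a small guide RNA. Its levels were -2.53, -2.58 and -2.48 at 0 h, -0.80, -1.07 and -1.59 at 1.5 h, -2.22, -2.29 and -2.08 at 12 h and -2.29, -3.33 and -2.34 at 24 h. All 3 mice at 1.5 h lay above all 9 other mice, and the 12 h and 24 h mice had no call against 0 h (log2 fold changes 0.34 and -0.12). The log2 fold change at 1.5 h over 0 h was 1.37 ± 0.32 (2.59-fold, adjusted p = 0.382 with all arrays and 0.026 without 24 h replicate 2). Within slide 1, 1.5 h replicate 1 was 1.73 above the 0 h mean. Glrx5, the coding gene under 10 kb away in the reference and a mitochondrial iron-sulphur cluster protein, had levels of 2.10, 2.15 and 2.19 at 1.5 h and 1.81, 1.86 and 2.07 at 0 h (log2 fold change 0.23 ± 0.24, adjusted p = 0.811).

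At 12 h, 18 of the 245 transcripts rose and 14 fell against 0 h, or 13.1% (exact 95% binomial interval 9.11% to 17.9%, which covers counting of probes only), where 15.3% of all probes were called (7.06% higher and 8.26% lower). Without 24 h replicate 2, which enters the pooled spread, 88 rose and 35 fell, where 49.2% of all probes were called, and all 32 calls were among them. Risers included an accession not detectable at baseline, the imprinted RNA Ipw, a variant of the chaperone gene Hspa13 and transcripts of the ROSA26 locus. Those that fell were 7 pseudogenes, 4 transcripts without a symbol and 3 variants of coding genes. Within slide 2, the 12 h minus 1.5 h difference had the same sign in 17 of the 18 risers and 14 of the 14 that fell. Its medians were 1.04 and -1.24, against 0.15 over all 245. The 12 h array on slide 3, set against the 0 h mean, had the same sign in 18 of 18 and 14 of 14. These 12 h and 0 h arrays also made the calls, so the agreement follows in part from the selection and is no separate check. Leaving out the slide 2 arrays keeps replicate 3 as the only 12 h array. The count of calls from that fit therefore cannot tell whether the 12 h changes depend on slide 2. With slide as a fixed block 9 transcripts were called, 7 of them among the 32, beside 4.15% of all probes, and with the slide 2 arrays left out none was called, where 0.0417% of all probes were.

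**Figure D2:**
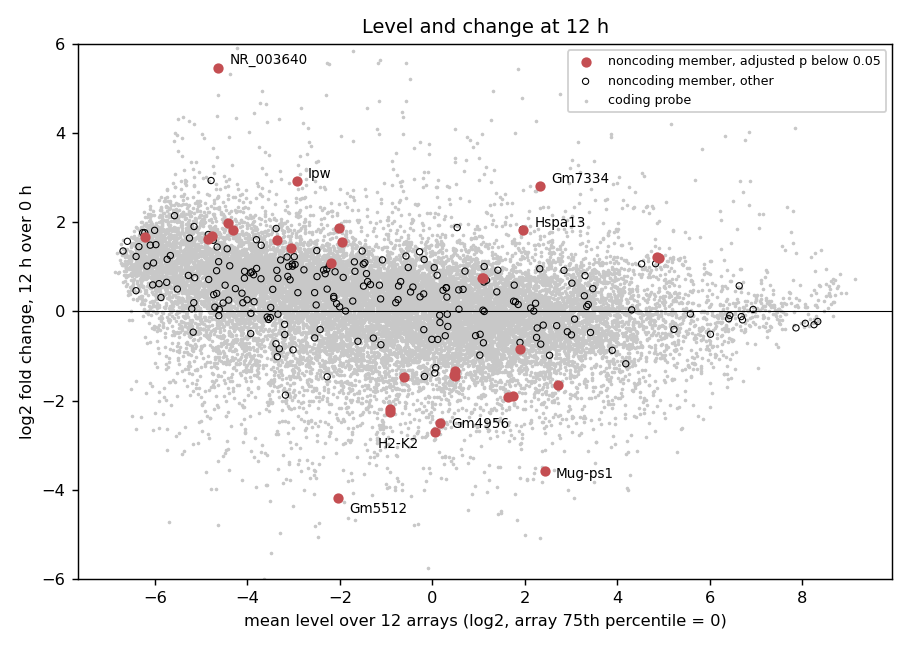
Log2 fold change at 12 h over 0 h (vertical) against mean level over the 12 arrays (horizontal, log2 relative to the 75th percentile of the array) for 245 RefSeq noncoding transcripts over all tested coding probes (grey). Filled red points passed an adjusted p of 0.05; they span 5.46 for NR_003640 to -4.19 for Gm5512, and 18 coding probes lie beyond the plotted range.

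The share called was read against coding probes of equal brightness, since brightness limits what a probe can show. The transcripts were dimmer, with a median mean level of -1.67, against -1.11 for coding probes and -3.25 for the other noncoding probes of the array. At 12 h, 13.1% of the transcripts and 17.2% of brightness-matched coding probes were called. The shares that rose were 7.35% and 7.55%, so the gap lay in those that fell, 5.71% of transcripts and 9.63% of coding probes. At 24 h against 0 h the shares called were 7.76% of transcripts and 5.75% of coding probes, and at 24 h against 12 h they were 7.35% and 13.1%. Without 24 h replicate 2 the 12 h shares were 50.2% and 49.1%, in the opposite order. The median log2 fold change at 12 h was 0.49 for the transcripts and 0.29 for matched coding probes. No test was made of these shares, since probes are not replicates of a condition.

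**Figure D3:**
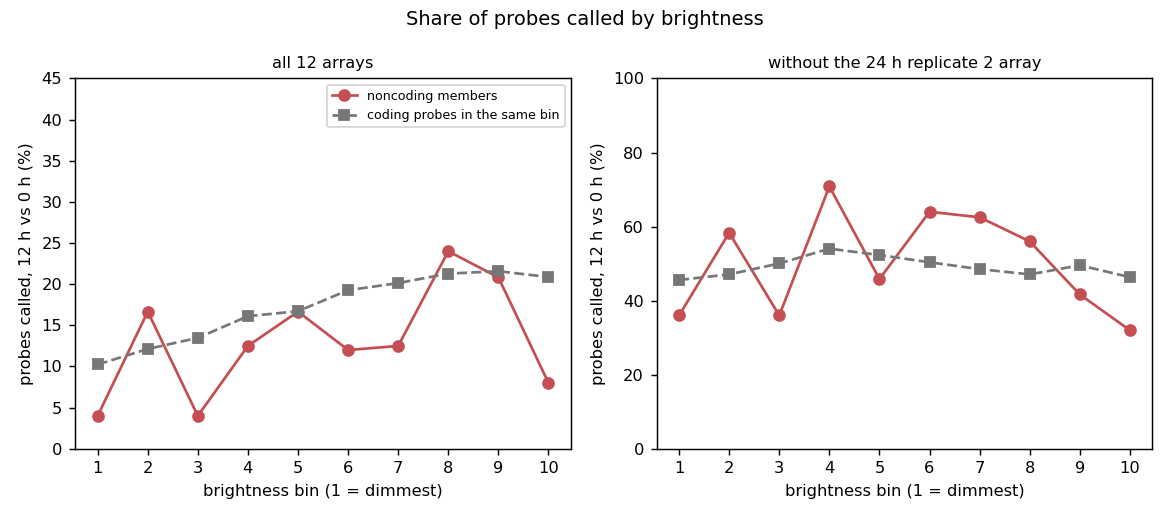
Share of probes called at 12 h against 0 h (percent, vertical) in 10 brightness bins from dim to bright (horizontal), for RefSeq noncoding transcripts (circles, 24 or 25 per bin) and coding probes of the same bin (squares), with all 12 arrays (left) and without 24 h replicate 2 (right). With all arrays the brightest bin holds 8% of transcripts and 20.9% of coding probes; without that array the 2 lines cross several times. The vertical scales of the panels differ.

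NR_003640 had the highest log2 fold change. Its levels were -6.78, -7.40 and -7.09 at 0 h, -7.09, -7.34 and -7.12 at 1.5 h, -1.16, -1.96 and -1.76 at 12 h and -2.70, -1.68 and -3.47 at 24 h. It was not well above background on any of the 6 arrays at 0 and 1.5 h and was so on all 6 at 12 and 24 h. At 12 h it was at least 11.5-fold higher than at 0 h (fitted log2 fold change 5.46 ± 0.41, adjusted p = 4.78e-05), and at 24 h at least 5.79-fold higher (4.47 ± 0.41, adjusted p = 0.000367). A bound written as "at least" sets each array of the dim group at no less than its lowest signal called well above background. Such a bound holds for the main processing only. Over the alternative settings the log2 fold change of NR_003640 was 1.76 to 5.78 at 12 h and 0.83 to 5.09 at 24 h. Within slide 2 the 12 h arrays were 5.67 above the 1.5 h arrays.

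Of the other accessions without a symbol, NR_027344 was at -3.16, -2.66 and -2.87 at 0 h, -2.66, -2.54 and -2.53 at 1.5 h, -1.30 to -0.81 at 12 h and -1.98, -1.26 and -1.39 at 24 h. The 12 h and 24 h mice lay above all earlier ones. It rose by 1.86 ± 0.27 at 12 h (3.64-fold, adjusted p = 0.00143) and by 1.36 ± 0.27 at 24 h (adjusted p = 0.0169), with 1.39 within slide 2 and 1.63 at 12 h with slide as a block (adjusted p = 0.058). NR_003637 was above background on no 0 h array and on all 3 at 12 h. Its levels were -5.41 to -5.18 at 0 h and -3.51 to -3.18 at 12 h. At 12 h it was at least 3.4-fold higher (adjusted p = 0.0325, and 1.77 with slide as a block, adjusted p = 0.0238). Over the alternative settings its log2 fold change at 12 h went down to 0.69.

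Ipw is a paternally expressed RNA of the imprinted region that is lost in Prader-Willi syndrome. With all arrays it was the 1 of 7 imprinted RNAs that passed at 12 h, where 15.3% of all probes were called. Without 24 h replicate 2, 3 of the 7 rose, beside 49.2% of all probes called. Its levels were -5.15, -3.66 and -4.60 at 0 h, -3.85, -2.70 and -2.70 at 1.5 h, -1.55 ± 0.45 at 12 h (mean and SD, n = 3, replicates 1 and 2 at -1.56 and -1.10) and -2.11, -3.83 and -1.80 at 24 h. The 12 h mice lay above all 0 h and 1.5 h mice, and 24 h replicate 2 lay within the 0 h range. The log2 fold change at 12 h was 2.92 ± 0.57 (7.55-fold, adjusted p = 0.00716), with 1.37 within slide 2 between 12 and 1.5 h and 1.98 with slide as a block (adjusted p = 0.13). Snrpn, a coding gene of the same imprinted region, gave 0.60 to 0.92 on its 3 probes (adjusted p of 0.184 to 0.299), and Ndn, another, gave -0.69 (adjusted p = 0.0717). The other imprinted RNAs, among them Airn, Peg13 and Peg3os, gave -0.10 to 1.61 and did not pass with all arrays.

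Noncoding variants of coding genes stand for splice forms of genes with a protein product. Of 34 probes 3 rose and 3 fell at 12 h, where 15.3% of all probes were called, and 3 rose at 24 h, where 5.46% were. Without 24 h replicate 2, 14 rose and 7 fell at 12 h, beside 49.2% of all probes. The Hspa13 variant, from the gene of a microsomal member of the Hsp70 chaperone family, had levels of 0.88, 1.03 and 1.38 at 0 h, 1.02, 0.94 and 0.87 at 1.5 h, 2.92, 2.53 and 3.30 at 12 h and 2.58, 2.80 and 3.41 at 24 h. Both later time points lay wholly above the earlier ones. It rose by 1.82 ± 0.30 at 12 h (3.53-fold, adjusted p = 0.00266) and by 1.83 ± 0.30 at 24 h (adjusted p = 0.00735), and by 1.82 within slide 2. The coding probe of Hspa13 gave 1.92 and 1.90, with a correlation of 0.999 over the 12 arrays, and Hspa5, the main endoplasmic reticulum chaperone, rose by 2.25 ± 0.34 at 12 h (adjusted p = 0.00173).

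The other variants that passed had smaller changes. Both Adarb1 variants fell at 12 h, by 1.42 and 1.35 on the log2 scale (adjusted p of 0.0313 and 0.0347); Adarb1 encodes an adenosine deaminase that edits RNA, and its coding probe gave -1.48. With slide as a block the variants gave -0.72 each (adjusted p of 0.14 and 0.131). Their levels at 12 h were -0.38 to -0.10 against 1.09 to 1.15 at 0 h, but 24 h replicate 2 stood at 1.07 where the other 24 h mice were at -0.43 to -0.35. Fbxo34, an F-box gene, fell by 0.84 (adjusted p = 0.037; -0.52 with slide as a block, adjusted p = 0.399) and its coding probe gave -0.95. Arhgap1 rose on 2 of its 3 variant probes by 0.75 and 0.76, where the coding probe gave 0.41 (adjusted p = 0.346); with slide as a block these 2 gave 0.82 and 0.84 (adjusted p of 0.152 and 0.182). Vash2, a gene of a tubulin carboxypeptidase, gave 2.94 on its variant probe (adjusted p = 0.0521), where the coding probe rose by 3.47 (adjusted p = 0.00868); at 0 h the variant was above background on no array and at 12 h on all 3.

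Variant and coding probes of 1 gene gave nearly the same change in most cases. Over 33 pairs from 28 genes the median absolute difference in log2 fold change at 12 h was 0.10; 24 pairs lay within 0.25, and 18 pairs had a correlation above 0.9 over the 12 arrays, which share library and slide effects. The largest gaps at 12 h were those of Tmem80 and Rnf44, and at 24 h that of Prmt6, whose variant gave 3.68 and its coding probe 1.34. The Rnf44 variants, from a RING finger gene, gave 0.53 and 0.47 at 12 h where the coding probe gave -0.79, and rose at 24 h by 1.00 and 0.88 (adjusted p of 0.0409 and 0.044) where it gave 0.04 (adjusted p = 0.967). Tmem80 gave -0.63 on the variant probe and 0.70 on the coding probe at 12 h, with a correlation of -0.57. Neither Tmem80 value passed, and the differences between probes of 1 gene were not tested.

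**Figure D4:**
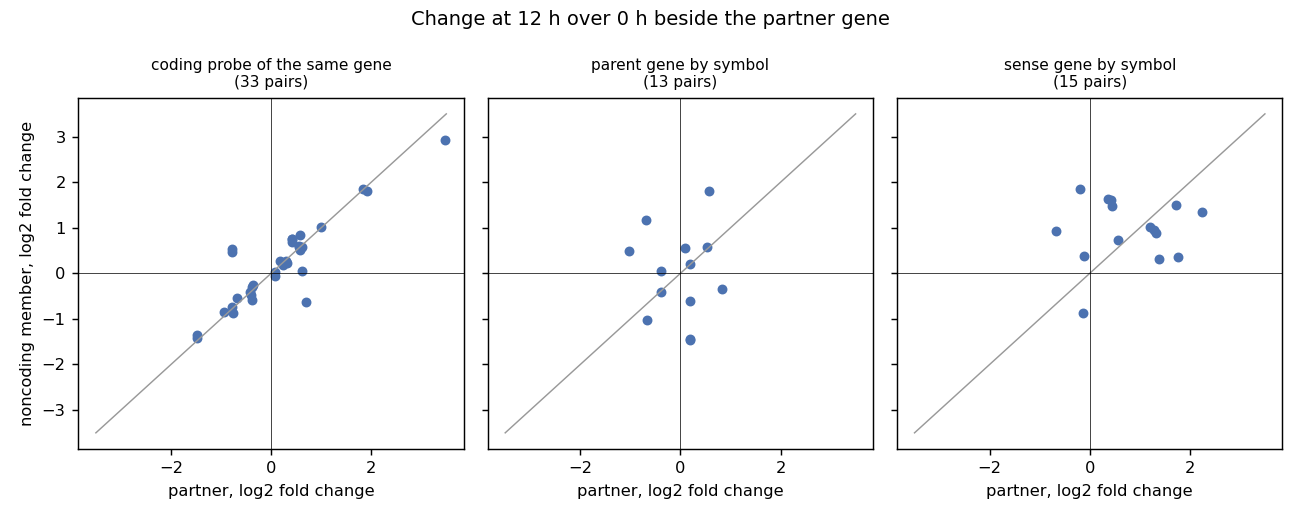
Log2 fold change at 12 h over 0 h of noncoding transcripts (vertical) against that of a partner gene (horizontal): 33 noncoding variants beside the coding probe of the same gene, 13 pseudogenes beside the parent named by their symbol, and 15 opposite-strand transcripts beside the sense gene. The grey line marks equal change; variants lie close to it (median absolute difference 0.10), the other 2 kinds do not (0.80 and 0.89).

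Some transcribed pseudogenes fell at both later time points. Of 95 pseudogene probes 4 rose and 7 fell at 12 h, where 7.06% of all probes rose and 8.26% fell. At 24 h 2 rose and 7 fell, where 2.84% of all probes rose and 2.62% fell (5.46% in either direction). Without 24 h replicate 2, 26 rose and 15 fell at 12 h, beside 49.2% of all probes called. In that fit 9 rose and 11 fell at 24 h, beside 17% of all probes called. The 4 largest falls at 12 h were those of Gm5512, Mug-ps1, H2-K2 and Gm4956. Mug-ps1 belongs to the murinoglobulins, protease inhibitors that rodent hepatocytes secrete into plasma. Its levels were 4.51, 4.22 and 4.22 at 0 h, 3.73, 2.31 and 1.83 at 1.5 h, 0.67, 0.94 and 0.63 at 12 h and 1.79 and 1.95 at 24 h, with the spot of 24 h replicate 2 dropped as an outlier. No later mouse reached the baseline range. At 12 h it was 11.9-fold lower (log2 fold change -3.57 ± 0.42, adjusted p = 0.000752) and at 24 h 5.46-fold lower (-2.45 ± 0.47, adjusted p = 0.0187), with -1.86 at 12 h with slide as a block (adjusted p = 0.0279) and -1.27 within slide 2 between 12 and 1.5 h. The coding genes Mug1 and Mug2 fell less, by 0.74 ± 0.22 and 0.97 ± 0.28 (adjusted p of 0.0458 and 0.0383); the difference from Mug-ps1 was not tested.

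H2-K2 is a copy of the class I major histocompatibility genes, which present peptides on the cell surface. It had levels of 1.37, 1.60 and 1.25 at 0 h, 1.15, 1.07 and 0.34 at 1.5 h, -1.66, -0.81 and -1.45 at 12 h and -0.93, -0.45 and -0.75 at 24 h. All 12 h and 24 h mice lay below all earlier ones. It fell by 2.71 ± 0.31 at 12 h (adjusted p = 0.000438) and by 2.12 ± 0.31 at 24 h (adjusted p = 0.00435), and by 1.94 within slide 2. The coding class I genes H2-K1 and H2-D1 gave -0.12 and -0.13 at 12 h (adjusted p of 0.72 and 0.768).

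Gm4956 and Gm5512 had large falls with different reliability. Gm4956 was at 1.16, 2.15 and 1.79 at 0 h, 1.51, 2.59 and 2.20 at 1.5 h, -0.21, -1.20 and -0.98 at 12 h and -1.42, -3.42 and -2.17 at 24 h. The 24 h mice lay below all others, with a log2 fold change of -4.04 ± 0.51 against 0 h (16.4-fold lower, adjusted p = 0.00192) after -2.50 ± 0.51 at 12 h (adjusted p = 0.00873; -3.10 within slide 2). Gm5512 was at 0.11, 0.28 and 0.15 at 0 h, -0.47, -2.63 and -2.64 at 1.5 h, -3.99, -3.69 and -4.35 at 12 h, and -3.54, 0.01 and -3.68 at 24 h. At 1.5 h the slide 1 mouse was the closest to baseline and the slide 2 mice lay far below it, and at 24 h replicate 2 was alone near baseline. Its log2 fold change at 12 h was -4.19 ± 0.88 (adjusted p = 0.00975), -1.85 with slide as a block (adjusted p = 0.0145) and -1.21 within slide 2.

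Of the other pseudogenes that fell, Cyp2d13, typed as a transcribed pseudogene of the Cyp2d drug oxidase family, was at 2.27 to 2.69 at 0 h, 1.56 to 2.40 at 1.5 h, 0.32 to 0.74 at 12 h and 1.85 to 1.99 at 24 h. It fell by 1.89 ± 0.27 at 12 h (adjusted p = 0.00139; -1.99 with slide as a block, adjusted p = 0.0514), and at 24 h it was 1.34 above 12 h (adjusted p = 0.0175). The coding genes Cyp2d9, Cyp2d10, Cyp2d22 and Cyp2d26 gave -0.31, -0.05, -0.93 and -0.82 at 12 h, and none passed. Hyi, typed as a transcribed pseudogene under this accession, fell by 1.92 at 12 h (adjusted p = 0.0123; -1.96 with slide as a block, adjusted p = 0.0518) and by 1.99 at 24 h (adjusted p = 0.0235). Serpina4-ps1, of the serpin protease inhibitor family, was at 1.01 to 2.58 at 24 h and 3.53 to 5.09 at 0 h and fell by 2.67 ± 0.67 (adjusted p = 0.0431; 0.676 with slide as a block), with 3.02 to 5.07 at 12 h.

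Gm7334 was the pseudogene that rose most. It was at 1.03, 0.88 and 1.14 at 0 h, 1.55, 0.86 and 1.61 at 1.5 h, between 3.18 and 4.20 at 12 h and 1.94, 4.47 and 3.03 at 24 h. All mice at 12 and 24 h lay above all earlier ones, with 7.02-fold at 12 h (2.81 ± 0.54, adjusted p = 0.00653; 2.95 with slide as a block, adjusted p = 0.0505) and 4.37-fold at 24 h (adjusted p = 0.0468; 2.13 on the log2 scale, and 1.47 without 24 h replicate 2, adjusted p = 0.0312). Gm13363 and NR_002686 behaved almost as 1 probe, with a mean absolute difference of 0.10 between their levels, and both rose at 12 h (1.19 and 1.21, adjusted p of 0.0461 and 0.0287), with 0.17 and 0.19 within slide 2. Whether these probes bind the same RNA was not tested.

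Over 13 pairs of a pseudogene and the parent gene named by its symbol, the median absolute difference at 12 h was 0.80, and 3 pairs lay within 0.25. At 1.5 h that median was 0.064, against 0.12 for the variant pairs, and the difference between kinds of pair was not tested. Npm3-ps1, of a nucleolar histone chaperone, gave 0.19 and its parent 0.19, with a correlation of 0.99 over the arrays. The 3 Pisd pseudogenes, whose parent makes phosphatidylethanolamine in mitochondria, gave -1.46, -0.60 and -1.44 (adjusted p of 0.066, 0.228 and 0.0313) where Pisd gave 0.20. The Pdxk-ps probe gave 0.48 where Pdxk, which makes pyridoxal phosphate, fell by 1.04 (adjusted p = 0.0376), and Selenok-ps1 gave -0.34 where Selenok, a selenoprotein of the endoplasmic reticulum, rose by 0.84 (adjusted p = 0.0249).

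Opposite-strand transcripts were mostly dim, with a median level of -3.64. Of 14 in that class 1 rose at 12 h, where 7.06% of all probes did. Without 24 h replicate 2, 8 rose and 1 fell, beside 49.2% of all probes called. The riser with all arrays was Slc13a2os, opposite the dicarboxylate transporter gene Slc13a2. It was not well above background at 0 h, was so on 2 of 3 arrays at 12 h and was at least 1.88-fold higher (adjusted p = 0.0443), but within slide 2 the 12 h arrays were -0.02 from the 1.5 h arrays and with slide as a block it gave 0.63 (adjusted p = 0.491). Slc13a2 gave 0.37 (adjusted p = 0.496). Over 15 pairs with a measured sense gene the median absolute difference at 12 h was 0.89, and 12 pairs changed in the same direction. Igf2os gave 1.86 at 12 h (adjusted p = 0.101, and 0.00614 without 24 h replicate 2) beside -0.18 for Igf2, a growth factor gene. Uckl1os gave 0.93 beside -0.68 for Uckl1, a uridine kinase-like gene. These pairs of opposite sign had correlations of -0.825 and -0.965 over the 12 arrays, which share slide effects. Within slide 2 Igf2os and Uckl1os gave 0.093 and 0.15.

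Among the other named noncoding genes 5 of 32 probes rose and none fell at 12 h, where 7.06% of all probes rose and 8.26% fell. At 24 h 4 rose, where 2.84% of all probes rose. Without 24 h replicate 2, 17 rose and 1 fell at 12 h, beside 49.2% of all probes called. The Gt(ROSA)26Sor transcripts come from the ubiquitously active locus used for transgene insertion. NR_027009 was at -3.80, -4.12 and -3.52 at 0 h, -4.01, -3.88 and -3.53 at 1.5 h, -2.12, -2.49 and -2.57 at 12 h and -2.46, -2.19 and -1.96 at 24 h, with no overlap between the later and earlier mice. It rose by 1.42 ± 0.27 at 12 h (adjusted p = 0.00551) and 1.61 ± 0.27 at 24 h (adjusted p = 0.00806), and NR_027008 by 1.55 and 1.99 (adjusted p of 0.0317 and 0.0228). The third probe of the locus, NR_027010, gave 1.24 and 0.58 (adjusted p of 0.0537 and 0.426), with 0.15 within slide 2, where NR_027009 and NR_027008 gave 1.41 and 1.88. With slide as a block none of the 3 passed at 12 or 24 h. Thumpd3, the coding gene that overlaps the locus, gave 0.86 at 12 h (adjusted p = 0.117), and Setd5, on the other side, gave -0.62 (adjusted p = 0.137).

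1700096K18Rik was at -4.37, -4.07 and -3.90 at 0 h, -3.71, -3.85 and -3.61 at 1.5 h, -3.28, -3.01 and -3.28 at 12 h and -2.95, -1.91 and -2.44 at 24 h. Each time point lay above all mice of the one before it. It rose by 1.68 ± 0.29 at 24 h (3.21-fold, adjusted p = 0.00951); with slide as a block it gave 1.57 (adjusted p = 0.255) and with normexp background correction 0.17 (adjusted p = 0.81). C030034I22Rik was above background on no 0 h array and all 3 at 12 h and was at least 2.23-fold higher (adjusted p = 0.00946; 0.373 with slide as a block). The NR_027445 probe of A230072C01Rik had the same pattern of detection at these times and was at least 2.9-fold higher (adjusted p = 0.00863), with 0.33 within slide 2, whereas its NR_027446 probe, above background on 2 of 3 arrays at 12 h, did not pass (adjusted p = 0.0771). Over the alternative settings the 12 h log2 fold changes went down to 0.72 for C030034I22Rik and 0.58 for NR_027445. Of 45 long noncoding transcripts with a tested coding gene overlapping or under 10 kb away in the reference, 5 were called at 12 h. None of these had a called neighbour, where 15.3% of all probes were called, and the pairs are too few to read a result from. The called Gt(ROSA)26Sor probes share the neighbour Thumpd3 (adjusted p = 0.0115 without 24 h replicate 2).

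**Figure D5:**
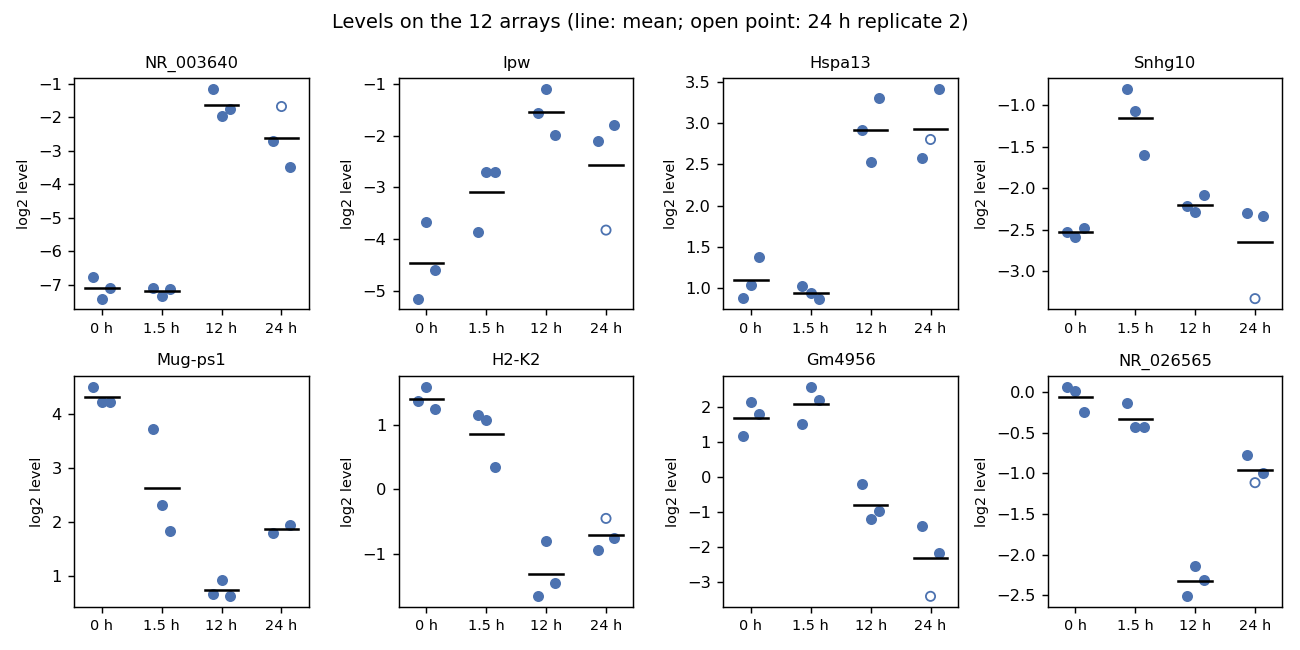
Levels of 8 named transcripts (log2 relative to the 75th percentile of the array, vertical) at 0, 1.5, 12 and 24 h after PH; each point is 1 mouse, the line is the mean and the open point is 24 h replicate 2. NR_003640, Ipw and Hspa13 are higher at 12 h. The 3 Snhg10 points at 1.5 h lie above its others, a change not called with all arrays (adjusted p = 0.382), and Mug-ps1, H2-K2, Gm4956 and NR_026565 are lower at 12 h.

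The small nucleolar RNA host genes, small structured RNAs and regulatory RNAs did not pass at 12 or 24 h. Snhg6, a host gene of the kind that carries a 5′ terminal pyrimidine tract, was at 3.26 to 3.60 at 12 h and 2.36 to 2.59 at 0 h (0.92 ± 0.29, adjusted p = 0.055; 0.0029 without 24 h replicate 2). Rpph1, the RNA of ribonuclease P, which trims transfer RNA precursors, gave 1.11 ± 0.41 (adjusted p = 0.0889; 0.00879 without 24 h replicate 2), Rmrp, the RNA of the related ribonuclease MRP, gave 0.44 (adjusted p = 0.466), and Terc, the telomerase RNA, gave 1.22 (adjusted p = 0.258; 0.0253 without 24 h replicate 2). Firre, an X-linked nuclear long noncoding RNA, gave -1.38 ± 0.50 (adjusted p = 0.0885; 0.0254 without 24 h replicate 2). The 2 Xist probes were near background in these male livers, above it on the slide 2 arrays alone.

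Protein partners of these RNAs are read against the 15.3% of all probes called at 12 h. Of 13 core proteins of small nucleolar ribonucleoproteins 1 rose at 12 h (Ruvbl2, an assembly ATPase, 0.69 ± 0.21, adjusted p = 0.047) and none fell. Without 24 h replicate 2, 7 of the 13 rose, beside 49.2% of all probes called in that fit. Of 11 ribonuclease P and MRP proteins 2 rose (Pop7, 0.78, adjusted p = 0.049, and Rpp38, 1.60, just below the threshold) and 1 fell (Rpp21, -1.09 ± 0.22, adjusted p = 0.00838). Of 10 nonsense-mediated decay factors none passed at 12 h and 1 rose at 24 h (Upf2, 1.02 ± 0.26, adjusted p = 0.0456), where 5.46% of all probes were called.

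At 24 h, 11 of the 245 transcripts rose and 8 fell against 0 h, or 7.76% beside 5.46% of all probes. This comparison shares its 0 h arrays with that at 12 h. Without 24 h replicate 2, 33 rose and 17 fell, beside 17% of all probes, and with slide as a fixed block none passed, beside 0.266% of all probes. 2700099C18Rik and 1700018B24Rik fell at 24 h and not at 12 h: 2700099C18Rik was at -4.83, -4.13 and -4.53 at 24 h and -3.48 to -2.70 at 0 h (-1.42 ± 0.28, adjusted p = 0.0166), and 1700018B24Rik, above background on no 24 h array, was at least 2.9-fold lower (adjusted p = 0.035).

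At 24 h against 12 h, 8 transcripts rose and 10 fell, or 7.35%, where 13% of all probes were called (6.26% higher and 6.78% lower). Within slide 3, the 24 h arrays minus the 12 h array had the same sign in 8 of 8 and 10 of 10. Those arrays also entered the calls, so this agreement follows in part from the selection and is no separate check. Transcripts without a symbol made up 5 of the 8 risers and 49 of the 245 transcripts measured. Without 24 h replicate 2, 5 of the 49 rose and 5 fell, beside 15.8% of all probes called. NR_026565 was at 0.07, 0.02 and -0.25 at 0 h, -0.14, -0.43 and -0.43 at 1.5 h, -2.51, -2.13 and -2.32 at 12 h and -0.78, -1.11 and -0.99 at 24 h, a dip in which the 24 h mice lay between 12 h and baseline. It fell by 2.27 ± 0.23 at 12 h (adjusted p = 0.00024; -1.98 with slide as a block, adjusted p = 0.0184) and at 24 h stood 1.36 ± 0.23 above 12 h (adjusted p = 0.00906; 1.43 within slide 3). NR_027640 fell by 2.19 at 12 h (adjusted p = 0.00425; -1.92 with slide as a block, adjusted p = 0.0906) and at 24 h stood 1.96 above 12 h (adjusted p = 0.0163), and NR_027357 gave -1.65 and 1.31 (adjusted p of 0.00747 and 0.0331).

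Gm3219, a transcribed pseudogene, gave the largest rise among the transcripts called between 12 and 24 h. It was at 0.13, 0.17 and 0.34 at 0 h, -0.48, 0.44 and 0.11 at 1.5 h, -0.85, -0.85 and -1.45 at 12 h and 1.61, 0.16 and 1.56 at 24 h. The 24 h over 12 h change was 2.16 ± 0.40 (adjusted p = 0.0131), 2.63 without 24 h replicate 2 and 3.03 within slide 3. Of those that fell, 1700018B24Rik was at least 3.83-fold lower (adjusted p = 0.0147) and 4930426L09Rik was at -0.83, -1.79 and -1.46 at 24 h and 0.77, 0.93 and 0.46 at 12 h (-2.07 ± 0.45, adjusted p = 0.0224). NR_003636, Pax6os1 and NR_003638 also fell (adjusted p of 0.0382, 0.0385 and 0.0473); each was above background on 2 of 3 arrays at 12 h and on none at 24 h, which gives at least 1.14-fold, 1.07-fold and 1.4-fold lower levels. All 3 were above background on slide 2 arrays alone, where 36.5% to 40% of negative control spots were too, and without 24 h replicate 2 the adjusted p were 0.0585, 0.0577 and 0.0468. Without 24 h replicate 2, 13 rose and 16 fell, beside 15.8% of all probes, and 14 of the 18 calls were among them; with slide as a fixed block 20 were called, 5 of them among the 18, beside 8.87% of all probes.

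Some transcripts did not pass with all arrays and did without 24 h replicate 2; several passed under other alternatives too. Kis2 was at 6.64 in 24 h replicate 2, at most 1.84 in the other 24 h mice and -1.55 to -0.94 at 0 h, and gave 4.64 ± 1.23 with all arrays (adjusted p = 0.0537) and 2.96 ± 0.79 without that mouse (adjusted p = 0.0302). The variant of Prmt6, a protein arginine methyltransferase gene, was at 2.40, 6.81 and 2.68 at 24 h and -0.01 to 0.66 at 0 h, and gave 3.68 ± 0.99 (adjusted p = 0.0558) and 2.26 ± 0.53 (adjusted p = 0.0194). For both, replicate 2 was the highest of the 12 mice. Pinc, above background on no 0 h array, was at -4.17, -7.96 and -4.24 at 24 h and -6.80 to -5.49 at 0 h (adjusted p = 0.646 with all arrays and 0.0144 without replicate 2). Olfr75-ps1, an olfactory receptor pseudogene, had adjusted p of 0.094 and 0.00196 at 12 h. It was above background on slide 2 arrays alone, and Pinc was so on 2 arrays outside slide 2.

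Between 12 and 24 h, AA543186 was at -3.07, -4.13 and -3.29 at 24 h and -4.89 to -4.38 at 12 h (1.20 with all arrays, adjusted p = 0.0654; 1.52 without replicate 2, adjusted p = 0.0262). NR_003642 was at -7.05, -4.13 and -6.58 at 24 h and -5.71 to -5.03 at 12 h (-0.63, adjusted p = 0.441; -1.53, adjusted p = 0.0156). The Nemp2 variant was at -6.49, -3.80 and -6.54 at 24 h and -5.16 to -4.96 at 12 h (-0.57, adjusted p = 0.488; -1.48, adjusted p = 0.0179). In both, replicate 2 lay above all 12 h mice and the other 24 h mice below them. Outside slide 2, NR_003642 was above background on 1 array and the Nemp2 variant on 2.

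Markers of some other cells moved over the same hours, where 15.3% of all probes were called at 12 h. Of 8 tested neutrophil markers 5 rose at 12 h, and the log2 of their summed level was 5.03 to 5.39 at 12 h and 0.78 to 1.22 at 0 h. Of 6 adipocyte markers 5 rose, with 4.14 to 4.45 at 12 h and -0.68 to -0.08 at 0 h. At 24 h the sums were 4.79 to 5.45 and 2.45 to 5.90. Of 8 hepatocyte markers 1 rose and 1 fell at 12 h. The other lists had few calls at 12 h. Of 7 Kupffer cell and macrophage markers 1 rose and 2 fell, and of 8 sinusoidal endothelium markers 1 rose and 1 fell. Of 8 stellate cell and 7 lymphocyte markers 1 each fell, and of 5 bile duct and 7 pancreas markers 1 each rose. None of 4 erythroid markers passed. The part of these cell types in the changes of the noncoding transcripts was not tested. In whole liver, fewer cells of a type and less RNA per cell cannot be told apart.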

How the data were processed

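Total liver RNA of 12 mice was measured on 12 arrays. The deposited spot intensities came from Agilent Feature Extraction 10.5.1.1, per the submitters' processing notes, and the processed signal is background-subtracted and detrended within each array, per the file headers. A value table of these arrays on the log2 scale, made by the authors, served as an alternative; its normalization is not given in the sources used here.

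Control spots, negative control probes and spots with an outlier flag were left out, spots of 1 probe were averaged, log2 of the processed signal was taken and the 75th percentile of the array subtracted. Probes well above background on at least 3 of 12 arrays were tested with limma 3.58.1 (R 4.3.3; lmFit and eBayes, 1 mean per time point, two-sided, Benjamini-Hochberg over 31168 probes). Tables and figures used Python 3.11.15, pandas 2.3.3, numpy 2.4.6, scipy 1.17.1 and matplotlib 3.10.9. The model was tested on simulated data. No spot was saturated, and the number of arrays limits the precision. Brightness matching weighted coding probes in 10 bins of mean level to the transcripts' bins.

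Members, classes, lists and tests were chosen with earlier results of these data known. H19 and Gas5 were left out by accession from general knowledge. Symbols came from RefSeq (GRCm38.p6), whereas the array was designed on an earlier build, so the reference gave names, gene types and neighbours only, besides the promoters. Gm5069 was moved from the imprinted to the pseudogene class, and the relatives of members (Mug1, Mug2, Hspa5, H2-K1, H2-D1, the Cyp2d genes, Snrpn, Ndn, Thumpd3, Setd5) were picked, after values were seen.

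Among transcripts called without overlap between groups, those named at 12 h were the 8 that rose most and the 8 that fell most; the other comparisons, and all comparisons without 24 h replicate 2, gave 5 per end, and each class and protein list up to 4. Arhgap1, Rnf44, Tmem80, Gm13363, NR_002686, the Pisd pseudogenes, Npm3-ps1, Pdxk-ps, Selenok-ps1, Igf2os, Uckl1os, Rmrp, Terc, Airn, Peg13 and Peg3os were named after their values were seen. Replicate numbers were not taken as pairs, since deviations of samples with the same number did not correlate throughout. Alternatives were background correction, normalization, filters, slide and replicate blocks, the samples fitted and leaving out each array; leaving out the slide 2 arrays was chosen after seeing the data.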

Additional observations from a re-analysis of the deposited data

How the results depend on the processing

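Counts of called transcripts moved with the settings below. At 1.5 h against 0 h (0 with all arrays), slide as a random block and the fit without 24 h replicate 2 gave 1 each, and leaving out single arrays gave 0 to 1. At 12 h against 0 h (32), normexp background correction gave 5, quantile normalization 54, slide as a fixed block 9, slide as a random block 19 and a fit of only the groups compared 124; leaving out the slide 2 arrays gave 0, and leaving out 24 h replicate 2 as well gave 82. Single arrays left out gave 18 (without 0 h replicate 1) to 123 (without 24 h replicate 2). At 24 h against 0 h (19) the counts were 3 with normexp, 11 with the replicate block, 0 with slide fixed, 2 with slide random, 1 with only the groups compared, 1 without slide 2 and 68 without slide 2 and 24 h replicate 2; single arrays gave 5 (without 0 h replicate 1) to 50 (without 24 h replicate 2). At 24 h against 12 h (18) they were 0 with normexp, 28 with quantile, 44 with the authors' value table, 6 with the replicate block, 0 with only the groups compared, 0 without slide 2 and 10 without slide 2 and 24 h replicate 2; single arrays gave 0 (without 12 h replicate 1) to 79 (without 24 h replicate 3). For a change at any time (32) they were 6 with normexp, 56 with quantile, 55 with the authors' table, 20 with the replicate block, 0 without slide 2 and 67 without slide 2 and 24 h replicate 2; single arrays gave 18 to 113. The replicate block pairs samples that share only a number. The share called at 12 h minus that of coding probes of equal brightness was -4.12 percentage points with all arrays, and turned to 1.14 without 24 h replicate 2 and 0.20 with quantile normalization. Of 57 named results 42 were called and 0 of these under every alternative; of 1538 alternatives 1180 kept direction and side of the threshold, 289 lost the call, 65 gained it and 4 turned direction: Pinc at 24 h against 0 h (-1.06 with normexp), AA543186 at 24 h against 12 h (-0.84 with normexp), NR_003642 (0.29) and Nemp2 (0.23) at 24 h against 12 h with quantile normalization. Fits with fewer arrays have fewer degrees of freedom. Those without the slide 2 arrays hold 1 array each at 12 h and 1.5 h. Their counts cannot tell whether a change at 12 h depends on slide 2. These fits are among the alternatives, so the 0 cannot tell how many named results hold under the rest. The cause of the other shifts was not tested. Dim probes limit what can be seen, and 156 of the 245 transcripts were above background on all 12 arrays.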

Other observations

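Some pairs of transcripts ran together over the 12 arrays, which share slide and time effects. NR_024029 and NR_024030 had a correlation of 0.995 and a mean absolute difference of 0.052 log2 units, and the pseudogene Gm5069 had correlations of 0.981 with Gm12070 and 0.984 with Gm5523. These pairs were singled out after their values were seen.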
